A study of Mus musculus with 12 samples.

Results

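The G1 cyclins and CDK inhibitors were followed across 12 RNA sequencing libraries of mesenchymal stem cells from mouse bone marrow. The members were chosen by symbol and are the D-type cyclins Ccnd1, Ccnd2 and Ccnd3, the E-type cyclins Ccne1 and Ccne2, the CIP/KIP inhibitors Cdkn1a, Cdkn1b and Cdkn1c, and the INK4 inhibitors Cdkn2a and Cdkn2b. All 10 were found among the 23358 rows of the deposited count table, and all 10 passed the filter on low counts that left 13534 genes. The libraries form 4 groups of 3: untreated cells (Ctrl), cells given CK666 (CK), cells given cytochalasin D (CytoD) and cells given both (CytoD+CK). Cells of every group grew in medium with 10% serum at 10000 cells per square centimetre for 1 day, and treatment then lasted 24 h. CK666 inhibits the Arp2/3 complex, which starts branched actin filaments, and cytochalasin D binds the growing ends of actin filaments and breaks up the actin network. The sources used here give no compound concentration, vehicle, mouse strain, age or sex. The labels number the replicates but do not say whether they are separate animals, isolations or cultures, so the spread behind each p-value is that of the libraries and may be technical alone.

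In the G1 phase a cell takes up or drops the decision to copy its DNA. D-type cyclins switch on the kinases Cdk4 and Cdk6, and E-type cyclins switch on Cdk2, and these kinases phosphorylate the retinoblastoma protein and its relatives, which lets E2F factors transcribe genes of S phase. The INK4 proteins bind Cdk4 and Cdk6, while the CIP/KIP proteins bind cyclin and kinase complexes, and Cdkn1a, which encodes p21, is a well known target of the transcription factor p53. In adherent cells such as marrow stromal cells, passage through G1 depends on attachment and on an intact actin network.

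Promoter sequences are shown for 4 members on which the results turn: Cdkn1a, the inhibitor with the largest rise, and Ccne1, Cdkn1b and Cdkn2a, which responded to cytochalasin D differently with and without CK666. They come from RefSeq on the build GRCm38.p6, which the coordinates of the deposited table match. Of the 10 members 6 had an entry there, with 9 start sites, and Ccnd1, Ccnd2, Ccne2 and Cdkn1c had none. Each stretch lies in the 250 bases before a transcription start, runs 5′ to 3′ on the strand of the gene and stops before any annotated exon. Capitals mark GC boxes (GGGCGG or its reverse complement), E2F words (TTTCCCGC, TTTCGCGC, TTTGCCGC or TTTGGCGC) and a match to the p53 element.

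Cdkn1a, upstream start, chr17:29090729-29090975, plus strand: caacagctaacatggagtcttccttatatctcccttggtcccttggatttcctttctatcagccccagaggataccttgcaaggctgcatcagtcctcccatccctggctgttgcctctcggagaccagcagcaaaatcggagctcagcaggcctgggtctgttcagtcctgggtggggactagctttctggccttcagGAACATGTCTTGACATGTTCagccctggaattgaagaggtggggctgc
Cdkn1a, downstream start, chr17:29093519-29093768, plus strand: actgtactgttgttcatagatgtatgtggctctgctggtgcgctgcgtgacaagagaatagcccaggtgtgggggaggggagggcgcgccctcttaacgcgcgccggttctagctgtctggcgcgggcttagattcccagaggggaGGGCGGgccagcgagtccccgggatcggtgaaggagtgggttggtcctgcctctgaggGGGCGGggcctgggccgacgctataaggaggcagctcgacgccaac
Ccne1, chr7:38107535-38107740, minus strand: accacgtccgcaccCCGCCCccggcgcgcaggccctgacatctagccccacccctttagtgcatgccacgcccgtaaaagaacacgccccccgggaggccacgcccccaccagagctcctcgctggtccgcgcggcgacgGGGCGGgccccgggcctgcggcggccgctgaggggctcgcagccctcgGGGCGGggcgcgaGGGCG
Cdkn1b, chr6:134920151-134920400, plus strand: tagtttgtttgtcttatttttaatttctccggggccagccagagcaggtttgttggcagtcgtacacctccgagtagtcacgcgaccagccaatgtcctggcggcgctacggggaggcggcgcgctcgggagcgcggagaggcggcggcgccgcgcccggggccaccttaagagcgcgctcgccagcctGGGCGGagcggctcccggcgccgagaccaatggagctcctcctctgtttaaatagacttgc
Cdkn2a, distal start, chr4:89294654-89294869, minus strand: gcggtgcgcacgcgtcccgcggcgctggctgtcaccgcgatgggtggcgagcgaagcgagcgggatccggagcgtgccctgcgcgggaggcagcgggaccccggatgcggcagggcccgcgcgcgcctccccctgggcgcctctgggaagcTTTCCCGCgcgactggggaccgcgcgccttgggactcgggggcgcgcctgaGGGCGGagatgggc

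The upstream Cdkn1a window holds a p53 element whose first base lies 51 bases before that start. A match with at most 1 mismatch, a rule set after this sequence was seen, occurs in 0.0578% of 32851 RefSeq windows of the same length. The downstream Cdkn1a window holds GC boxes that begin 104 and 46 bases before the start and a TATAA word 25 bases before it. Ccne1 had 4 GC boxes, the last of which runs past the end of the printed stretch, and no E2F word of the 4 searched. Cdkn1b had a GC box 61 bases before its start and CCAAT words at 161 and 35 bases. The distal Cdkn2a window, before the start used by the p19Arf transcript, held the single E2F word found in the 9 windows, 99 bases before the start. The proximal Cdkn2a window, which is not printed, held no match to any motif searched. Over all windows, on both strands, 32.7% hold a GC box, 33.8% a CCAAT word, 22.8% a TATAA word and 1.86% an E2F word. These matches are letters in a window and are not measured binding.

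Library totals lay between 48930210 and 69269716 counts, and levels are given as CPM, counts brought to the same library size with edgeR's TMM factors. The limit set by 0 counts is taken as 3 counts, which is 0.0423 to 0.0634 CPM and covers counting error alone. All counts in the table were even. CK replicate 3 stood apart: genes differed from CK replicates 1 and 2 by an absolute log2 difference whose median was 0.289 and 0.276, against 0.126 between those 2. These differences went with gene length (r across genes of 0.38 and 0.46 with log2 length, against -0.10 to 0.09 in every other pair of replicates), long genes being lower in CK replicate 3. The part of RNA quality in this was not tested. Some CK results below are also given without CK replicate 3, and for others the value of that library is shown. Of 12 marrow stromal markers 11 could be tested, Thy1 having at most 4 counts in any library. Other markers of this list were also low. Group means were 0.160 to 0.617 CPM for Nt5e, 0.607 to 0.949 for Lepr and 1.99 to 2.30 for Eng. By the test described below, 37.9%, 41.1% and 46% of all genes tested were called against Ctrl with CytoD, CK and CytoD+CK. Of the 11 stromal markers, 4 rose and 4 fell with CytoD, 1 rose and 6 fell with CK, and 1 rose and 6 fell with CytoD+CK. The summed level of the list (9958 to 13786 CPM in Ctrl, 7026 to 8684 in CK, 19882 to 22696 in CytoD, 7394 to 7655 in CytoD+CK) is mostly Cxcl12, with means of 8331, 5956, 18052 and 5746 CPM. Ly6a had means of 69.1, 13.2, 23.4 and 8.51 CPM. Macrophage markers summed to at most 13.2 CPM (Ptprc, Adgre1, Tyrobp and Fcgr1 at 0 counts in every library), endothelial markers to at most 3.99 CPM and erythroid and lymphoid markers to at most 0.366 CPM. All 10 adipocyte markers, none of them at 0 counts in every library of a group, rose in each treated group against Ctrl. Their median log2 change was 4.68 with CK, 2.32 with CytoD and 5.24 with CytoD+CK. Their sum was 3506 to 4163 CPM in Ctrl, 7767 to 9990 in CK, 8621 to 8927 in CytoD and 9667 to 12066 in CytoD+CK. This sum is mostly Lpl, with means of 3095, 5886, 7412 and 7424 CPM in Ctrl, CK, CytoD and CytoD+CK. Whether these shifts in marker genes have a part in the changes below was not tested. In bulk RNA, fewer cells of a kind and less RNA per cell cannot be told apart.

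Levels of different members were compared per kilobase of the gene length in the table. In Ctrl the order was Ccnd1 at 169.9 ± 3.66 CPM per kilobase (SD, n = 3), Ccnd2 at 124 ± 6.88, Cdkn1a at 107 ± 3.87, Cdkn2a at 32.3 ± 1.22, Cdkn1b at 22.6 ± 0.109, Cdkn2b at 21.4 ± 1.14, Ccnd3 at 21.4 ± 0.706, Ccne1 at 10.3 ± 0.719, Ccne2 at 1.94 ± 0.0953 and Cdkn1c at 0.0833 ± 0.0447. Only the neighbours Cdkn2b and Ccnd3 overlapped in their library values. The first 3 members changed places under treatment. Cdkn1a led in CytoD+CK at 223 ± 23.4 CPM per kilobase, ahead of Ccnd2 at 173 ± 11.3 and Ccnd1 at 103 ± 24.0, with no overlap between neighbours. In CytoD, Cdkn1a at 173 ± 11.3 CPM per kilobase overlapped Ccnd1 at 161 ± 9.32, and in CK, Ccnd2 at 162 ± 31.3 overlapped Cdkn1a at 157 ± 22.6. Ccne1, Ccne2 and Cdkn1c stayed in the last 3 places, in that order, in all 4 groups.

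**Figure D1:**
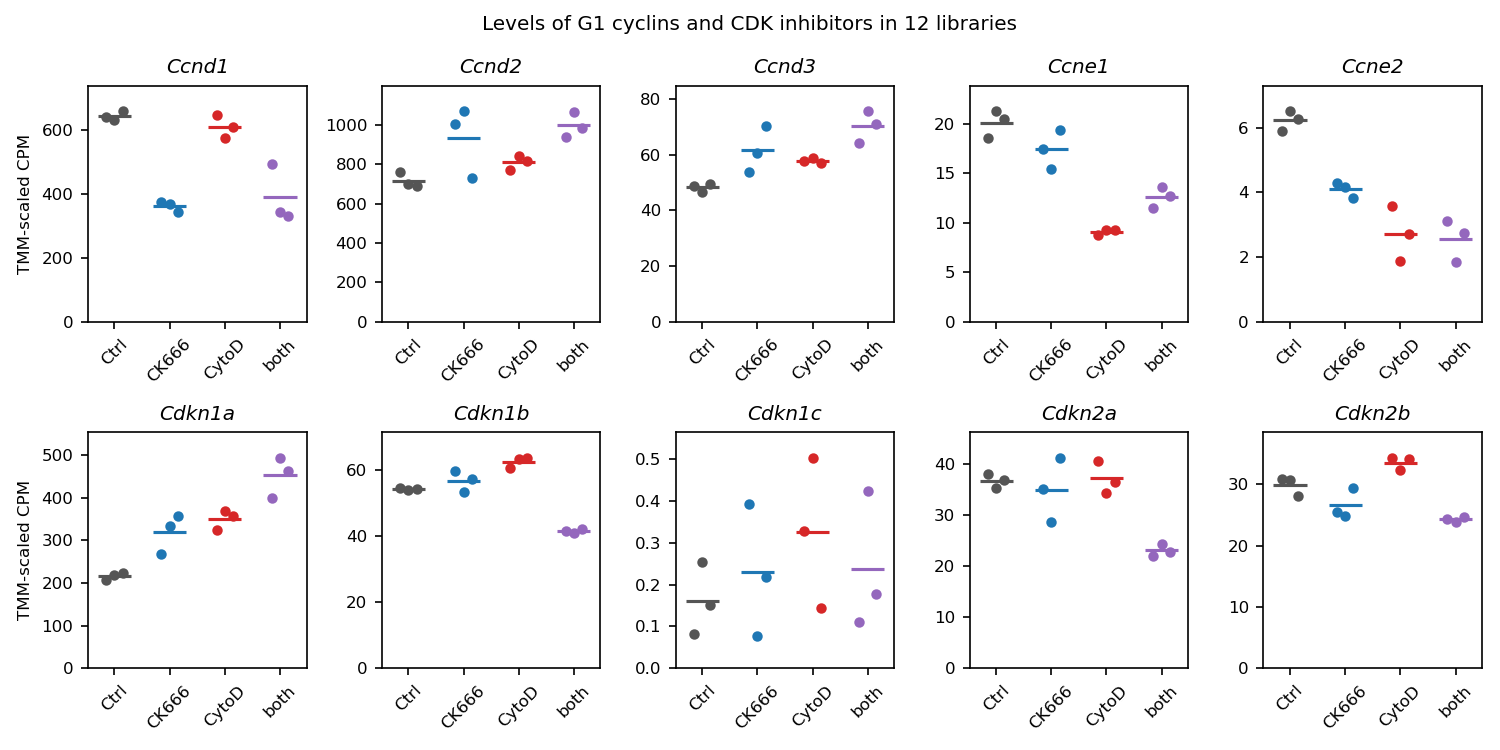
TMM-scaled CPM of each member (vertical axis, linear, from 0) in the 12 libraries of 4 groups; points are libraries and bars are group means, and "both" is CytoD+CK. Ccne1 lies at 8.76 to 9.29 CPM in CytoD and at 18.5 to 21.3 CPM in Ctrl, and Cdkn1b in CytoD+CK lies below every other library at 40.9 to 42.2 CPM.

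All changes below come from edgeR's quasi-likelihood test over the 13534 genes, with Benjamini-Hochberg adjusted p-values within each comparison and a threshold of 0.05. Against Ctrl, 5 of 10 members were called with CytoD (3 higher, 2 lower), 5 with CK (3 higher, 2 lower) and 9 with CytoD+CK (3 higher, 6 lower). Over all genes tested the called shares were 37.9% with CytoD, 41.1% with CK and 46% with CytoD+CK. The libraries compared did not overlap for 7 members with CytoD, 4 with CK and 9 with CytoD+CK, where the shares of all genes were 61.6%, 50.1% and 63.4%. Cdkn1a and Ccnd3 were called higher and Ccne2 lower in all 3 comparisons, which share the Ctrl libraries. The medians over the members, on the log2 scale, were 0.17 with CytoD, -0.0031 with CK and -0.34 with CytoD+CK, and over all genes tested they were 0.02, 0.03 and 0.04. The CK and CytoD counts moved with the libraries and settings used. The CK count was 7 without CK replicate 3 (3 higher, 4 lower), 8 with a correction for gene length (3 higher, 5 lower) and 3 without any one of CK replicates 1 and 2 and Ctrl replicates 2 and 3 (2 higher, 1 lower). The CytoD count was 3 without any one of the Ctrl libraries and CytoD replicates 2 and 3, and with no filter on low counts (1 higher, 2 lower).

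**Figure D2:**
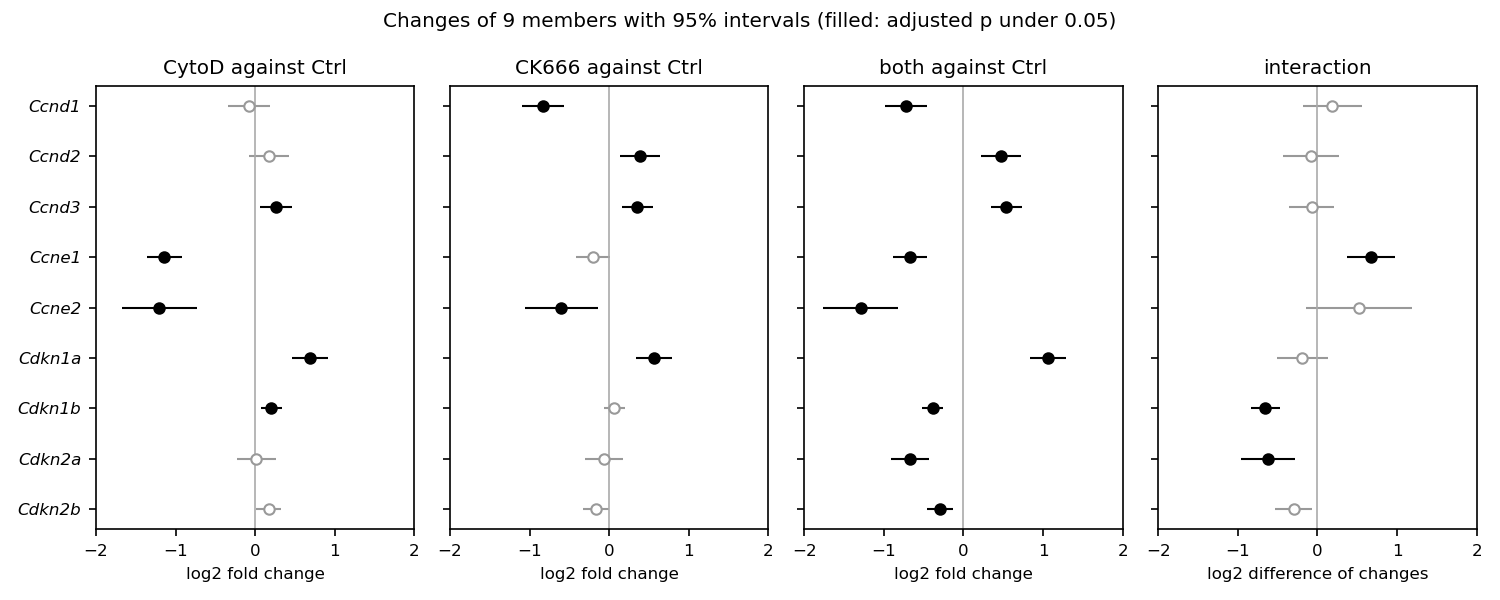
Log2 fold changes of 9 members (horizontal axis) against Ctrl in 3 comparisons and, in the last panel, the difference between the CytoD change with and without CK666; bars are 95% intervals and filled points have an adjusted p under 0.05. Cdkn1c, at a few counts per library, is left out, and 9 members are filled in the CytoD+CK panel.

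The D-type cyclins did not move together. Ccnd1, which encodes cyclin D1 (chromosome 7, 144929931 to 144939925), was measured at 642, 633 and 660.0 CPM in Ctrl and at 376, 368 and 343 CPM in CK. In CytoD it was 648, 578 and 609.5 CPM, and in CytoD+CK 496, 346 and 331 CPM. The CK libraries and the CytoD+CK libraries all lay below every Ctrl and CytoD library, and CytoD overlapped Ctrl. Ccnd1 fell 1.78-fold with CK (log2 -0.83 ± 0.12 SE, adjusted p = 0.000166) and 1.65-fold with CytoD+CK (log2 -0.72 ± 0.12, adjusted p = 0.000345). With CytoD its log2 change was -0.08 (95% interval -0.34 to 0.19, adjusted p = 0.658). CytoD+CK against CK gave a log2 difference of 0.11 (95% interval -0.15 to 0.37), which was -0.10 without CytoD+CK replicate 1, the library at 496 CPM.

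Ccnd2, cyclin D2 (chromosome 6, 127125709 to 127151048), was at 761, 699 and 688 CPM in Ctrl, at 1006, 1069 and 730.0 CPM in CK, at 769, 843 and 816 CPM in CytoD and at 938, 1068 and 987 CPM in CytoD+CK. All CytoD+CK libraries lay above Ctrl, while CK replicate 3 lay among the Ctrl libraries. It rose 1.39-fold with CytoD+CK (log2 0.48 ± 0.12, adjusted p = 0.00429). With CK it rose 1.31-fold (log2 0.39 ± 0.12, adjusted p = 0.0176). Leaving out any one of CK replicates 1 and 2 and Ctrl replicates 2 and 3 ended this call (adjusted p = 0.0559, 0.069, 0.0601 and 0.0737), as did a fit of only the groups compared (adjusted p = 0.0742), while the log2 change without CK replicate 3 was 0.49. The non-coding gene 9330179D12Rik overlaps 1660 bases of Ccnd2 but had at most 60 counts in any library.

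Ccnd3, cyclin D3 (chromosome 17, 47505051 to 47599688), was at 48.8, 46.5 and 49.5 CPM in Ctrl, at 54.0, 60.6 and 70.4 CPM in CK, at 58.0, 58.8 and 56.9 CPM in CytoD and at 64.1, 75.7 and 70.9 CPM in CytoD+CK. Every treated library lay above every Ctrl library. The rise was 1.46-fold with CytoD+CK (log2 0.54 ± 0.09, adjusted p = 0.00034) and 1.28-fold with CK (log2 0.35 ± 0.09, adjusted p = 0.00801). CK replicate 3 was the highest CK library, and the log2 change with CK ranged from 0.20 to 0.44 over the alternative fits. With CytoD the rise was smaller (log2 0.26 ± 0.09, adjusted p = 0.0388), a call lost without any one of the 6 libraries compared (adjusted p from 0.0798 to 0.129). In all, 8 of 14 alternative fits lost it. Ccnd3 shares 358 bases with Bysl, and the sources used here do not say whether counting used the strand. Bysl fell in CytoD against Ctrl (log2 -0.61), the opposite direction to Ccnd3. In CytoD+CK against CytoD both were called higher, Bysl by a log2 change of 0.50 and Ccnd3 by 0.28. The part of shared bases in the Ccnd3 changes was not tested.

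Within a library, the make-up of the D-type cyclins does not depend on library scaling. It does depend on the gene lengths used. Without division by length, Ccnd2 already exceeded Ccnd1 in Ctrl, with means of 50.8 and 45.8%. Per kilobase, Ccnd1 made up 52.4, 54.1 and 55.2% of the summed D-type level in Ctrl and 33.3, 31.3 and 36.4% in CK. In CytoD+CK it made up 40.6, 29.4 and 30.1%, and in CytoD 51.8, 46.9 and 49.1%. Ccnd2 took the larger share in CK and CytoD+CK, where its means were 56.5 ± 4.85% and 56.5 ± 5.12% (SD, n = 3), against 39.3 ± 1.52% in Ctrl and 42.9 ± 2.33% in CytoD. Ccnd3 was the smallest part, with means of 6.77 ± 0.158% in Ctrl, 9.76 ± 2.45% in CK, 7.83 ± 0.170% in CytoD and 10.2 ± 1.16% in CytoD+CK. For Ccnd1 the libraries did not overlap in 5 of the 6 pairs of groups, and each of those 5 gave an exact 2-sided permutation p = 0.1, the smallest that 3 against 3 allows (0.143 adjusted over 30 such tests), so the design cannot pass 0.05. CK and CytoD+CK had Ccnd1 shares of 33.7 ± 2.57% and 33.4 ± 6.27% (exact permutation p = 1).

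**Figure D3:**
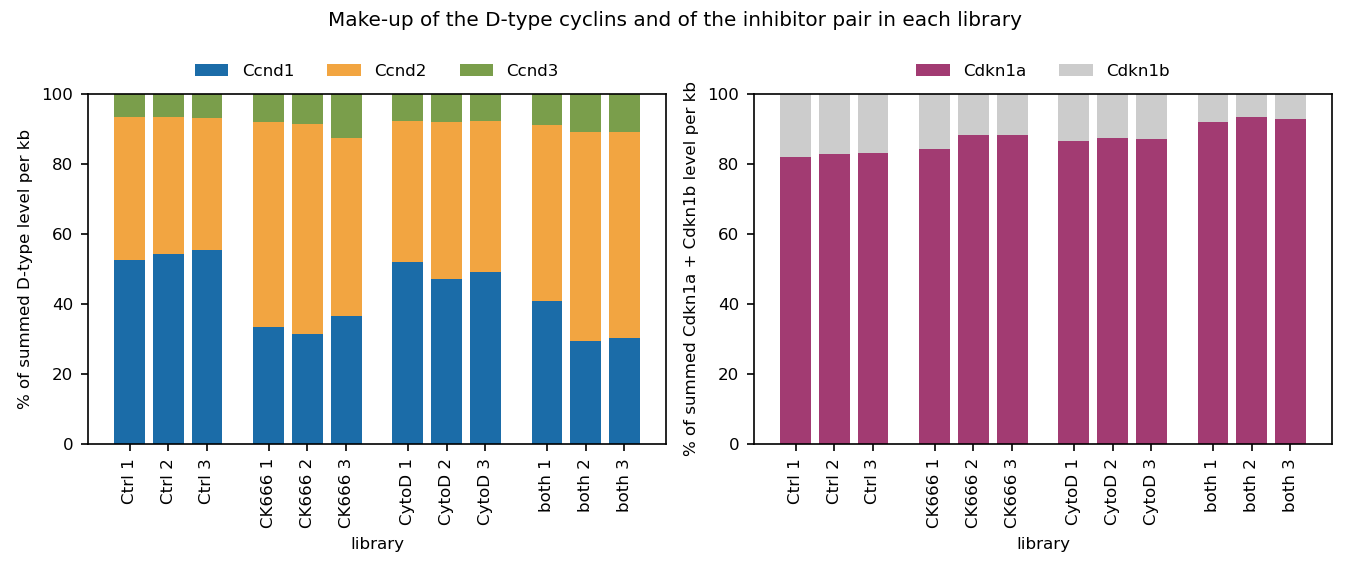
Share of each D-type cyclin in their summed level per kilobase (left) and of Cdkn1a and Cdkn1b in theirs (right), in percent, 1 bar per library. Ccnd1 holds 52.4 to 55.2% in Ctrl and 31.3 to 36.4% in CK, and Cdkn1a holds 81.9 to 83.0% in Ctrl and 91.9 to 93.5% in CytoD+CK.

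The E-type cyclins fell, most in the groups with cytochalasin D. Ccne1, cyclin E1 (chromosome 7, 38097984 to 38107490), was at 18.5, 21.3 and 20.4 CPM in Ctrl, at 17.5, 15.4 and 19.3 CPM in CK, at 8.76, 9.29 and 9.28 CPM in CytoD and at 11.5, 13.7 and 12.7 CPM in CytoD+CK. CytoD was lowest, CytoD+CK lay between CytoD and CK with no overlap, and CK overlapped Ctrl. Ccne1 fell 2.20-fold with CytoD (log2 -1.14 ± 0.10, adjusted p = 3.87e-06) and 1.59-fold with CytoD+CK (log2 -0.67 ± 0.10, adjusted p = 0.000102). With CK its log2 change was -0.20 ± 0.10 (adjusted p = 0.108), and without CK replicate 3 it was -0.33 and passed the test (adjusted p = 0.0118). CytoD+CK was 1.39-fold higher than CytoD (log2 0.47 ± 0.10, adjusted p = 0.00332).

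Ccne2, cyclin E2 (chromosome 4, 11191354 to 11204779), was at 5.90, 6.51 and 6.27 CPM in Ctrl, at 4.29, 4.18 and 3.82 CPM in CK, at 3.58, 1.88 and 2.71 CPM in CytoD and at 3.11, 1.83 and 2.75 CPM in CytoD+CK. All treated libraries lay below Ctrl, and CytoD and CytoD+CK overlapped. It fell 2.30-fold with CytoD (log2 -1.20 ± 0.22, adjusted p = 0.000849) and 2.44-fold with CytoD+CK (log2 -1.29 ± 0.22, adjusted p = 0.000333). With CK it fell 1.52-fold (log2 -0.61 ± 0.21, adjusted p = 0.036), a call lost without any one of the 3 CK libraries or Ctrl replicates 2 and 3 (adjusted p from 0.0548 to 0.0959). Ccne2, at 112 to 334 counts per library, shares 5622 bases with Ints8, which had up to 2670 counts. Ints8 was also called lower with CytoD, by a smaller change (log2 -0.20, adjusted p = 0.0448). It was not called with CK (log2 -0.17) or with CytoD+CK (log2 -0.14). The part of shared bases in the Ccne2 changes was not tested. Per kilobase, Ccne1 made up 84.1 ± 0.301% of the E-type level in Ctrl and 84.7 ± 4.48% in CytoD (SD, n = 3, exact permutation p = 0.7).

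Among the CIP/KIP inhibitors, Cdkn1a rose in every treated group. Cdkn1a (chromosome 17, 29090986 to 29100722), whose promoter windows open the sequences above, was at 208, 219 and 223 CPM in Ctrl, at 268, 332 and 356 CPM in CK, at 324, 368 and 358 CPM in CytoD and at 399.9, 493 and 462 CPM in CytoD+CK. Every treated library exceeded every Ctrl library, every CytoD+CK library exceeded all others, and CK and CytoD overlapped. The rise against Ctrl was 1.62-fold with CytoD (log2 0.69 ± 0.11, adjusted p = 0.000248), 1.47-fold with CK (log2 0.56 ± 0.11, adjusted p = 0.00103) and 2.09-fold with CytoD+CK (log2 1.06 ± 0.11, adjusted p = 3.77e-06). CytoD+CK exceeded CK 1.42-fold (log2 0.50 ± 0.11, adjusted p = 0.00848) and CytoD 1.29-fold (log2 0.37 ± 0.11, adjusted p = 0.0181). The last call was lost without CytoD replicate 1, CytoD+CK replicate 2 or CytoD+CK replicate 3 (adjusted p = 0.0772, 0.0853 and 0.0581), and that against CK was lost when only those 2 groups were fitted (adjusted p = 0.088).

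Cdkn1b, which encodes p27 (chromosome 6, 134920401 to 134925525), took another course. It was at 54.5, 54.0 and 54.3 CPM in Ctrl, at 59.7, 53.3 and 57.3 CPM in CK, at 60.6, 63.1 and 63.7 CPM in CytoD and at 41.6, 40.9 and 42.2 CPM in CytoD+CK. CytoD libraries were the highest and CytoD+CK libraries the lowest, with no overlap with any other group. Cdkn1b fell 1.31-fold with CytoD+CK against Ctrl (log2 -0.38 ± 0.06, adjusted p = 0.000171), by 0.59 ± 0.06 on the log2 scale against CytoD (adjusted p = 1.6e-05) and 1.37-fold against CK (log2 -0.45 ± 0.06, adjusted p = 0.000393). With CytoD it rose 1.15-fold (log2 0.20 ± 0.06, adjusted p = 0.017), a call lost without any one of the Ctrl libraries, CytoD replicate 2 or CytoD replicate 3 (adjusted p from 0.0574 to 0.0656). In all, 6 of 14 alternative fits lost this call. With CK the log2 change was 0.06 (95% interval -0.06 to 0.19).

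The balance between the 2 inhibitors moved accordingly. Cdkn1a made up 82.6 ± 0.576% of the summed Cdkn1a and Cdkn1b level per kilobase in Ctrl, 86.8 ± 2.25% in CK, 86.9 ± 0.496% in CytoD and 92.8 ± 0.772% in CytoD+CK (SD, n = 3). All pairs of groups except CK and CytoD were separate, each at the smallest exact permutation p = 0.1 (0.143 adjusted over 30 tests). Cdkn1c, which encodes p57 (chromosome 7, 143458339 to 143461050), had between 4 and 30 counts per library and group means of 0.162, 0.230, 0.326 and 0.237 CPM in Ctrl, CK, CytoD and CytoD+CK. Its libraries overlapped in every comparison, none was called, and no change is read from these counts.

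The INK4 members, neighbours on chromosome 4, were lower in CytoD+CK. Cdkn2a (89274473 to 89294619) encodes p16 and, from its distal start, p19Arf, which acts on Mdm2 and p53, and the table counts both transcripts in 1 row. It was at 38.0, 35.3 and 36.7 CPM in Ctrl, at 35.1, 28.5 and 41.2 CPM in CK, at 40.5, 34.3 and 36.5 CPM in CytoD and at 22.04, 24.3 and 22.8 CPM in CytoD+CK. The CytoD+CK libraries lay below all others, which overlapped among themselves. Cdkn2a fell 1.59-fold against Ctrl (log2 -0.67 ± 0.11, adjusted p = 0.000299), 1.61-fold against CytoD (log2 -0.69 ± 0.11, adjusted p = 0.000539) and 1.52-fold against CK (log2 -0.60 ± 0.11, adjusted p = 0.00407, and 0.0529 when only those 2 groups were fitted). CytoD alone gave a log2 change of 0.02 (95% interval -0.22 to 0.26). CK alone gave -0.07 (95% interval -0.31 to 0.17), and without CK replicate 3 it gave -0.25 and passed the test (adjusted p = 0.0369).

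Cdkn2b, which encodes p15 (89306289 to 89311032), was at 30.9, 30.6 and 28.0 CPM in Ctrl, at 25.4, 24.8 and 29.4 CPM in CK, at 34.3, 32.3 and 34.0 CPM in CytoD and at 24.4, 23.8 and 24.7 CPM in CytoD+CK. CytoD was the highest group and CytoD+CK the lowest, and CK overlapped Ctrl through replicate 3. Cdkn2b fell 1.23-fold with CytoD+CK against Ctrl (log2 -0.30 ± 0.07, adjusted p = 0.00545) and 1.38-fold against CytoD (log2 -0.47 ± 0.07, adjusted p = 0.000481). Against Ctrl neither compound alone was called (log2 0.17 with CytoD, adjusted p = 0.0923, and -0.17 with CK, adjusted p = 0.0891), and without CK replicate 3 the CK change was -0.29 with an adjusted p = 0.00117.

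Adding CK666 to cytochalasin D changed 7 of 10 members against CytoD (3 higher, 4 lower), where 30.1% of all genes were called, and 8 of 10 did not overlap, against 53% of all genes. Higher were Ccne1, Cdkn1a and Ccnd3, the last 1.21-fold (adjusted p = 0.0349). The Ccnd3 call was lost without any one of 5 of the 6 libraries, and under 9 of 14 alternative fits in all. Lower were Cdkn2a, Cdkn1b, Ccnd1 and Cdkn2b. Adding cytochalasin D to CK666 changed 4 of 10 against CK (Cdkn1a higher, Cdkn2a, Cdkn1b and Ccne1 lower), where 11.6% of all genes were called (4.43% higher, 7.17% lower). The count was 1 of 10, Cdkn1b, when only those 2 groups were fitted. In that comparison 6 members did not overlap, against 27.6% of all genes. Between the compounds alone, CK against CytoD, 4 of 10 members were called (2 higher, 2 lower), where 39.8% of all genes were (22.9% higher, 16.8% lower), and 5 did not overlap, against 49.8% of all genes. Ccne1 was 1.91-fold higher in CK (adjusted p = 1.99e-05) and Ccne2 1.51-fold higher (adjusted p = 0.0461). The Ccne2 call was lost without any one of 5 of the 6 libraries, and under 8 of 14 alternative fits in all. Ccnd1 was 1.69-fold lower in CK (adjusted p = 0.000452) and Cdkn2b 1.26-fold lower (adjusted p = 0.0035).

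Whether the cytochalasin D change differed with CK666 present was tested as the interaction, the log2 change of CytoD+CK against CK minus that of CytoD against Ctrl. It was called for 3 of 10 members (1 above 0, 2 below) and for 14.3% of all genes (6.63% above 0, 7.67% below). Cdkn1b rose by 0.20 on the log2 scale with CytoD against Ctrl and fell by 0.45 with CytoD+CK against CK, a difference of -0.65 ± 0.08 (adjusted p = 0.000516). Cdkn2a changed by 0.02 without CK666 and fell by 0.60 with it, a difference of -0.62 ± 0.16 (adjusted p = 0.0214). That call was lost without Ctrl replicate 2, Ctrl replicate 3, CytoD replicate 1 or CytoD+CK replicate 1 (adjusted p = 0.0599, 0.0613, 0.0581 and 0.0547). For Cdkn2a, CK replicate 3 was the highest CK library, at 41.2 CPM. Ccne1 fell in both settings, by 1.14 without CK666 and by 0.46 with it (the latter lost its call when only CytoD+CK and CK were fitted, adjusted p = 0.0828), a difference of 0.68 ± 0.14 (adjusted p = 0.00732). Cdkn1a had an interaction of -0.19 (95% interval -0.51 to 0.13, adjusted p = 0.435), and Ccnd1 one of 0.19 (95% interval -0.19 to 0.56, adjusted p = 0.515).

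**Figure D4:**
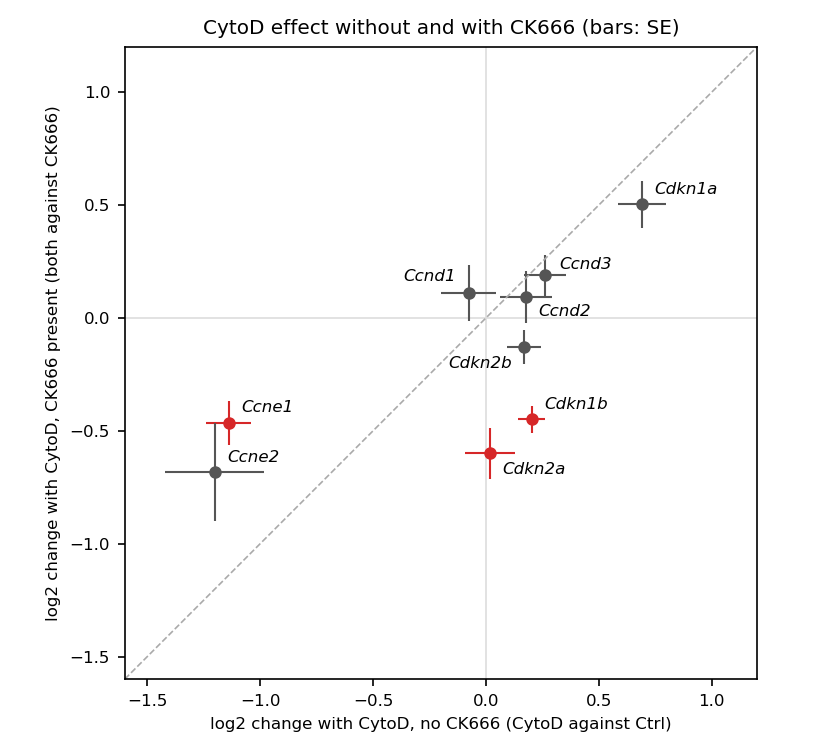
Log2 change of 9 members with cytochalasin D in the absence of CK666 (horizontal axis, CytoD against Ctrl) and in its presence (vertical axis, CytoD+CK against CK); bars are SE, the dashed line marks equal changes and red points have an interaction with an adjusted p under 0.05. Cdkn1b and Cdkn2a lie below the line, with interactions of -0.65 and -0.62, and Ccne1 lies above it, with 0.68.

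Of 9 genes for partner kinases, their activators and the other INK4 inhibitors, 0 rose and 2 fell with CytoD, 3 rose and 1 fell with CK, and 0 rose and 2 fell with CytoD+CK, where 37.9%, 41.1% and 46% of all genes tested were called. With only the groups compared in the fit, these counts were 1 and 3, 2 and 0, and 0 and 4, and the CytoD+CK count was 0 and 1 without any one of Ctrl replicates 2 and 3 and CytoD+CK replicates 1 and 3. Cdk2, the partner of cyclin E, was at 32.4, 35.5 and 34.3 CPM in Ctrl and at 24.8, 24.0 and 25.6 CPM in CytoD, and it fell 1.37-fold with CytoD (adjusted p = 0.000109), 1.18-fold with CK (adjusted p = 0.00891) and 1.35-fold with CytoD+CK (adjusted p = 8.86e-05). Cdk4, a partner of cyclin D, rose 1.29-fold with CK (adjusted p = 0.0036) and had log2 changes of -0.13 with CytoD and -0.02 with CytoD+CK, which did not pass. Its CK libraries were at 362, 360 and 452 CPM, the last being replicate 3. Cdk6 was called in none of these comparisons and lay at 2.25 to 5.94 CPM. Cdkn2c, the INK4 gene for p18, was at 19.6, 18.0 and 19.3 CPM in Ctrl and at 30.8, 27.9 and 32.7 CPM in CK, a 1.60-fold rise (adjusted p = 2.05e-05) in the group where Cdkn2a and Cdkn2b were not called. Its interaction was -0.52 (adjusted p = 0.00877).

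Over all genes tested, 19.1% were called higher and 18.9% lower with CytoD, 22.5% and 18.7% with CK, and 24.4% and 21.6% with CytoD+CK. Of 13 pocket protein, E2F and DP genes, 2 rose and 7 fell with CytoD, 0 rose and 4 fell with CK, and 3 rose and 6 fell with CytoD+CK. The CytoD count was 0 and 5 without CytoD replicate 3. Rb1, which encodes the retinoblastoma protein, rose 1.30-fold with CytoD (adjusted p = 0.0236) and 1.42-fold with CytoD+CK (adjusted p = 0.00402), and its log2 change with CK was 0.03 (adjusted p = 0.88). Its relative Rbl1 fell 1.36-fold with CytoD (adjusted p = 0.0211) and 1.52-fold with CytoD+CK (adjusted p = 0.00296). The other relative, Rbl2, went the opposite way, with means of 55.1 CPM in Ctrl, 69.5 in CytoD and 72.2 in CytoD+CK. Every CytoD and CytoD+CK library lay above every Ctrl library for Rbl2. In CK its mean was 65.7 CPM, and CK replicate 3 lay below every Ctrl library. E2f1, an activator, fell 1.52-fold with CytoD (adjusted p = 0.000404), 1.21-fold with CK (adjusted p = 0.043) and 1.51-fold with CytoD+CK (adjusted p = 0.000317). The repressors E2f7 and E2f8, themselves E2F targets, fell most: with CytoD+CK, E2f7 was 5.87-fold and E2f8 6.83-fold lower (adjusted p = 2.84e-08 and 1.37e-07).

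Among genes downstream of the G1 switch, all those listed fell with CytoD and with CytoD+CK, and some did not pass the test with CK. Of 20 E2F target genes of S phase, 20 fell with CytoD, 13 with CK (17 without CK replicate 3) and 20 with CytoD+CK, and 0 rose. Mcm7 and Rfc4 had log2 changes of 0.0026 and 0.0071 with CK, and were singled out after their values were seen. The median log2 changes of the 20 genes were -0.9995 with CytoD, -0.45 with CK and -1.11 with CytoD+CK. Over all genes tested the medians were 0.02, 0.03 and 0.04, and 18.9%, 18.7% and 21.6% were called lower. Cdc6, a loader of replication origins, fell 3.56-fold with CytoD, 1.77-fold with CK and 5.24-fold with CytoD+CK, and Mcm5, part of the helicase that opens DNA for copying, fell 3.41-fold, 1.72-fold and 4.85-fold. Of 14 cyclins, kinases and markers of G2 and mitosis, 14 fell with CytoD, 12 with CK and 14 with CytoD+CK, with medians of -1.34, -0.55 and -2.05. The mitotic kinase gene Plk1 fell 2.65-fold, 1.60-fold and 5.70-fold in these comparisons, which share their Ctrl libraries.

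Of 16 other p53 target genes, 8 rose and 0 fell with CytoD, 4 rose and 1 fell with CK, and 8 rose and 0 fell with CytoD+CK, with medians of 0.32, 0.16 and 0.33. With only the groups compared in the fit, the CytoD count was 11 and 2 and the CK count 2 and 0, and without Ctrl replicate 1 or Ctrl replicate 3 the CK count was 2 and 1. Over all genes tested, 19.1% were called higher with CytoD, 22.5% with CK and 24.4% with CytoD+CK. The shares called lower were 18.9%, 18.7% and 21.6%. Of the 16 genes, 8 were not called with CytoD, 11 with CK and 8 with CytoD+CK. Zmat3 had means of 196, 200, 172 and 211 CPM in Ctrl, CK, CytoD and CytoD+CK. For Plk2 the means were 35.8, 26.7, 30.3 and 32.1 CPM. Like Cdkn1a, Sesn2 and Phlda3 rose in all 3, Sesn2, a stress-induced regulator of growth signalling, by 1.61-fold, 1.53-fold and 1.84-fold with CytoD, CK and CytoD+CK. Mdm2, which encodes the ligase that degrades p53, rose 1.33-fold with CytoD (adjusted p = 0.00147) and 1.38-fold with CytoD+CK (adjusted p = 0.000439), and its log2 change with CK was 0.12 (adjusted p = 0.24). Trp53, the p53 gene itself, fell 1.22-fold with CytoD (adjusted p = 0.0105) and 1.19-fold with CytoD+CK (adjusted p = 0.0192).

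**Figure D5:**
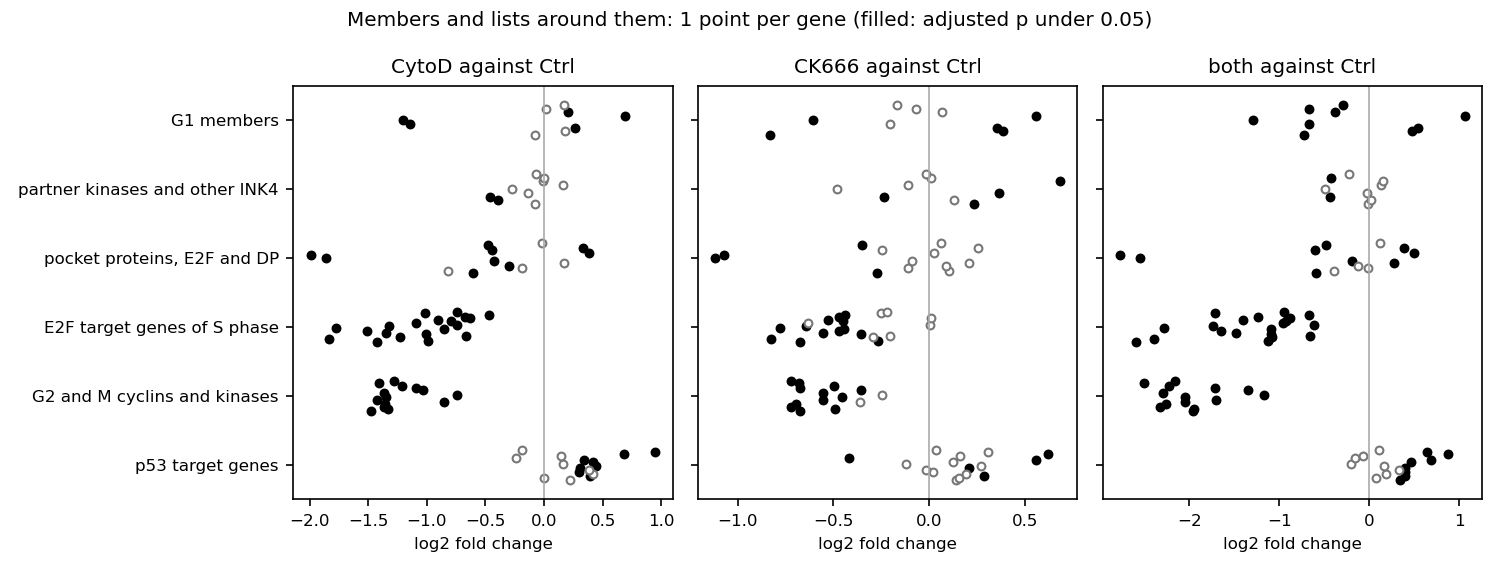
Log2 fold changes against Ctrl (horizontal axis, scaled separately in each panel) of 9 members and of the genes in 5 lists around them, 1 point per gene, with filled points where the adjusted p was under 0.05. With CytoD and with CytoD+CK all 20 E2F target genes of S phase and all 14 genes of G2 and mitosis lie below 0, while the members lie on both sides.

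Genes that act on the protein level of the members were mixed. Of 15 genes for the turnover of cyclins and inhibitors, 2 rose and 3 fell with CytoD, 3 rose and 3 fell with CK, and 4 rose and 3 fell with CytoD+CK. The shares of all genes tested that were called were 37.9%, 41.1% and 46%. The CytoD count was 0 and 3 without any one of Ctrl replicates 1 and 3 and CytoD replicates 2 and 3, and the CK count was 1 and 1 without Ctrl replicate 2 and 1 and 2 with only the groups compared in the fit. Skp2, which marks p27 and p21 for degradation, fell 1.70-fold with CytoD (adjusted p = 0.000869), 1.38-fold with CK (adjusted p = 0.0174) and 2.12-fold with CytoD+CK (adjusted p = 3.77e-05). Its cofactor Cks1b was not called in these 3 comparisons (log2 -0.10, 0.15 and -0.15). Dtl, which directs p21 and Cdt1 to degradation in S phase, fell 2.45-fold, 1.40-fold and 3.02-fold with CytoD, CK and CytoD+CK.

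Of 18 regulators upstream of the members, 17 could be tested, and 5 rose and 5 fell with CytoD, 1 rose and 4 fell with CK, and 5 rose and 7 fell with CytoD+CK. Of all genes tested, 37.9%, 41.1% and 46% were called in these 3 comparisons. The CK count was 4 and 6 without CK replicate 3, and 1 and 2 with only the groups compared in the fit. Klf4, a transcription factor that acts on Cdkn1a, fell 2.28-fold with CytoD, 1.52-fold with CK and 1.56-fold with CytoD+CK, with an interaction of 1.14 (adjusted p = 0.000164). Cbx7, a Polycomb protein that represses Cdkn2a, rose 1.83-fold with CytoD (adjusted p = 0.000641) and had log2 changes of 0.29 with CK and 0.36 with CytoD+CK that did not pass. Its interaction was -0.79 (adjusted p = 0.0262). Myc rose 1.34-fold with CytoD+CK (adjusted p = 0.0281), as did Foxo1, a transcription factor that acts on Cdkn1b, by 1.21-fold (adjusted p = 0.037), and Foxo3 was called in none of the 3 (log2 -0.09 to 0.13).

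For the 4 members whose group means spanned the widest range, the genes most alike were taken by Pearson r of log2 CPM over the 12 libraries, as a description of shared treatment groups and with no test. Ccne2 was closest to Wdr62, Dsc2 and Tra2a (r = 0.96, 0.95 and 0.95), and Ccne1 to Prpf3, Pgk1 and Pop1 (r = 0.97, 0.97 and 0.96). Cdkn1a was closest to Gm12824, Rhobtb1 and Lrp3 (r = 0.99, 0.99 and 0.98), and Ccnd1 to Tbxas1, Lgr5 and Rcan2 (r = 0.98, 0.98 and 0.97). None of these 12 is a member.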

How the data were processed

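RNA was sequenced from 12 libraries, and 1 table of the whole series was used. The authors' deposited count columns hold reads per gene, per the file headers, and the submitters' processing notes list HTSeq, TopHat and CASAVA 1.9 with hg19, a human build, while symbols and coordinates are those of mouse (GRCm38). The deposited RPKM columns, which the authors scaled by gene length and by a library total, entered no test. Every count was even, so the counting error may be larger than the counts show. The annotation and the use of strand are not given in the sources used.

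Counts of 13534 genes passing filterByExpr (minimum count 10) were fitted with edgeR 4.0.16 under R 4.3.3 (TMM scaling, glmQLFit and glmQLFTest, 1 mean per group over all 12 libraries, no block). Adjusted p-values are Benjamini-Hochberg values over all genes tested in a comparison, with 0.05 as the threshold, and SE is the absolute log2 fold change over the square root of F. The common biological coefficient of variation was 0.115. Levels of different genes were compared as CPM per kilobase of the deposited length, and shares within a library by exact 2-sided permutation over libraries. Replicates of a group differed by more than sampling noise, so none was merged. The CytoD fit was tested on simulated counts with the common coefficient of variation for every gene and changes in CytoD alone. Those counts do not hold the spread of single genes or the outlying CK library of these data. Alternatives were RLE factors, DESeq2 1.42.0, no filter, halved counts, Rn45s left out (1.856 to 4.521% of counts), a correction for gene length, a fit of only the groups compared, a replicate block and each library left out. The counts over gene lists under these settings were added after seeing the data.

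All 10 members are named. From each of the other lists up to 6 called genes with the largest change, plus kinases, pocket proteins and regulators fixed by name, could be named. Of 13 lists with 165 entries, all entries were found, 1 under an older symbol. The members and lists were chosen with earlier results of these data known.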

Additional observations from a re-analysis of the deposited data

Results flagged for a closer look

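The members Cdkn1b, Ccne1 and Cdkn2a stood out because their cytochalasin D change differed with and without CK666 by edgeR's test of that difference itself. The log2 differences were -0.65 for Cdkn1b (adjusted p = 0.000516), 0.68 for Ccne1 (adjusted p = 0.00732) and -0.62 for Cdkn2a (adjusted p = 0.0214). Under the 19 alternatives run for each, Cdkn1b stayed between -0.69 and -0.61 and Ccne1 between 0.60 and 0.78, and both passed the threshold in all of them, while Cdkn2a lay between -0.74 and -0.45 and missed it in 4. The cause of these differences was not tested. Groups of 3 libraries are too small for the check on single outlying samples.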

How the results depend on the processing

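Of 70 results for single members (10 members, 7 comparisons), 37 were called, and of these 26 kept direction and side of the threshold under every alternative run, 11 lost the call under at least 1, and 0 reversed. Of the 33 not called, 12 were called under some alternative and 15 turned sign under some. With correction for gene length the count of members called was 8 with CK against Ctrl and 7 with CK against CytoD, with no filter it was 3 with CytoD against Ctrl, and with only the groups compared it was 1 with CytoD+CK against CK. Leaving out each library in turn gave 3 to 7 with CK against Ctrl and 3 to 4 with CytoD against Ctrl. The cause was not tested. RLE factors moved the median of all genes by less than 0.1, but turned the split of all CK calls against Ctrl from 3040 higher and 2525 lower to 2658 and 2878, and DESeq2 to 2842 and 3081.

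Without division by length, the Ccnd1 share was 45.8, 26.9, 41.4 and 26.7% in Ctrl, CK, CytoD and CytoD+CK, the Ccnd2 share 50.8, 68.4, 54.7 and 68.5%, the Ccnd3 share 3.43, 4.65, 3.91 and 4.82%, and the Cdkn1a share 79.9, 84.8 and 91.5% in Ctrl, CytoD and CytoD+CK.

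Sign changes fell on results that were not called, and the fitted values of Cdkn1c rest on 4 to 30 counts per library and are no measure of change. Over libraries left out, CytoD+CK against CK ranged from -0.10 to 0.22 for Ccnd1, from -0.043 to 0.20 for Ccnd2 and from -0.66 to 0.67 for Cdkn1c. The interaction ranged from -0.020 to 0.29 for Ccnd1, from -0.21 to 0.026 for Ccnd2 and from -0.16 to 0.058 for Ccnd3. CK against CytoD ranged from -0.047 to 0.18 for Ccnd3 and from -0.25 to 0.042 for Cdkn2a, and CytoD+CK against CytoD from -0.30 to 0.16 for Ccne2 and from -1.17 to 0.064 for Cdkn1c. Against Ctrl, CK ranged from -0.073 to 0.96 for Cdkn1c and from -0.25 to 0.056 for Cdkn2a, CytoD from -0.053 to 0.069 for Cdkn2a, and CytoD+CK from -0.16 to 1.05 for Cdkn1c. With correction for length, Ccnd2 was -0.0075 with CytoD+CK against CK and Cdkn1b -0.0045 with CK against Ctrl.

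Deviations of same-numbered libraries had r from -0.079 to 0.26 (median 0.07, 4 of 18 pairs over 0.1), and those of other-numbered ones from -0.18 to 0.17 (median -0.034, 3 of 36 over 0.1). CytoD and CytoD+CK libraries of 1 number had r of 0.256, 0.116 and 0.064. Since not every pair was over 0.1, the numbers were not taken to pair samples. With the replicate number as a block the counts of members called were 5 with CytoD, 5 with CK and 9 with CytoD+CK against Ctrl, 7 against CytoD, 5 instead of 4 against CK, 4 with CK against CytoD and 3 for the interaction, and Cdkn1c was -0.058 with CytoD+CK against CK.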
